A study of Mus musculus with 8 samples.

Results

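The gasdermin C genes of the mouse form a tandem cluster on chromosome 15. They were chosen here by name: every non-control probe whose gene name in the scanner files was Gsdmc, Gsdmc2, Gsdmc3 or Gsdmc4 was taken. This gave 4 probes of 55681 on the array, for 3 of the 4 genes, among 25082 genes named there. Of the probes, 1 was named Gsdmc, 2 were named Gsdmc3, 1 was named Gsdmc4 and 0 were named Gsdmc2. The genes had drawn attention through their low signal in the knockout small intestine of these same arrays, so their values in that comparison are given as a description, with no test.

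Gasdermins are cytosolic proteins with an amino-terminal domain that can form pores in membranes and a carboxy-terminal domain that holds it in check. Cleavage between the domains by caspases or granzymes frees the pore-forming part, and the leaky membrane lets ions and small proteins out and can kill the cell by pyroptosis. In the mouse intestine the gasdermin C genes are expressed by epithelial cells and are known to be induced by type 2 cytokines acting through STAT6, as in worm infection.

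The study measured total RNA of 2 cm intestinal fragments from pups at 3 days of age, strain 129SV, with 1-colour Agilent arrays. The 4 groups were claudin-7 knockout (KO) small intestine, wild-type (WT) small intestine, KO large intestine and WT large intestine, with 2 arrays each, numbered replicates 2 and 3. The knockout was made by gene targeting and all pups were untreated. Claudin-7 (Cldn7) is a tight-junction membrane protein of epithelia. The labels do not say whether a small and a large fragment of the same number came from the same pup, nor whether separate pups were used, so the spread between arrays may be partly technical.

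All 4 probes are 60 bases long and lie on the minus strand within 115.2 kb of chromosome 15 in build mm9. The Gsdmc probe lies at chr15:63608169-63608228 and the Gsdmc4 probe at chr15:63723278-63723337. The Gsdmc3 probes lie at chr15:63689822-63689881 (probe A) and chr15:63689307-63689366 (probe B). Probe B also lists a RefSeq accession of Gsdmc2 in the scanner files, so transcripts of Gsdmc2 and Gsdmc3 cannot be told apart with it. The sequences are shown because near-identical copies can share a probe's signal. Capitals mark the bases at which the Gsdmc probe and Gsdmc3 probe A were identical in a local alignment, 36 of 41 aligned positions.
Gsdmc: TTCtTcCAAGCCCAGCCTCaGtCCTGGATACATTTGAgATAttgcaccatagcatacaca
Gsdmc3 probe A: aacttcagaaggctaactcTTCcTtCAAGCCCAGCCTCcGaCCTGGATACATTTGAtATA
Gsdmc3 probe B: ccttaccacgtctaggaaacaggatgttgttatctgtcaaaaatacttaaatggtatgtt
Gsdmc4: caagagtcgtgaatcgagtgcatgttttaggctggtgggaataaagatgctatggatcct

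The alignment held an unbroken identical run of 15 bases, whereas no other pair of these 4 probes shared a run longer than 5 bases. None of the 55681 probes searched shared a run of 20 or more bases with any of them. Every one of the 4 probes was well above background on 8 of 8 arrays, none was saturated and none carried an outlier flag.

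In the small intestine the gasdermin C signal was far lower in the KO than in the WT arrays at every probe. The Gsdmc probe had processed signals of 162 and 274.5 units in KO small intestine (replicates 2 and 3), against 5059.8 and 8385 in WT small intestine. Gsdmc3 probe A had 184 and 262 units in KO small intestine, against 4728 and 8238 in WT small intestine. Both KO arrays lay more than an order of magnitude below both WT arrays at these probes. Gsdmc3 probe B had 196 and 78.2 units in KO small intestine, against 10591 and 20407 in WT small intestine. The Gsdmc4 probe had 158 and 79.4 units in KO small intestine, against 9497 and 13513 in WT small intestine. The KO arrays were again lower throughout, and the gap was wider at Gsdmc3 probe B and Gsdmc4 than at the other probes.

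Levels below are log2 of the signal relative to the array's own 75th percentile, so that a spot at that percentile has a level of 0. Gsdmc averaged -3.83 ± 0.27 in KO small intestine and 1.04 ± 0.47 in WT small intestine (SD, n = 2 each), a difference of -4.87 or a 29.3-fold lower signal. Gsdmc3 probe A averaged -3.77 ± 0.09 in KO and 0.98 ± 0.52 in WT small intestine (SD, n = 2 each), a 26.9-fold lower signal. Gsdmc3 probe B averaged -4.60 ± 1.20 in KO and 2.21 ± 0.63 in WT small intestine (SD, n = 2 each), a 113-fold lower signal. Gsdmc4 averaged -4.74 ± 0.97 in KO and 1.84 ± 0.32 in WT small intestine (SD, n = 2 each), a 95.8-fold lower signal. KO and WT arrays did not overlap at 4 of 4 probes, where 34.6% of 38718 kept probes had both KO arrays below both WT arrays. Ranked by log2 difference among 20002 genes, Gsdmc3 (by probe B, its brighter probe) was the lowest, Gsdmc4 was number 3 and Gsdmc number 12 from the bottom. In tissue RNA, fewer cells of a type and less RNA per cell cannot be told apart.

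The gasdermin C genes were bright in both genotypes of the large intestine and no difference passed the test. The Gsdmc probe had 10850 and 13331 units in KO large intestine, against 7312 and 8893 in WT large intestine. Gsdmc3 probe A had 9857 and 11433 units in KO large intestine, against 6712.5 and 8040.5 in WT large intestine. Gsdmc3 probe B had 17903 and 19233 units in KO large intestine, against 15466 and 18050.5 in WT large intestine. The Gsdmc4 probe had 21994.5 and 29064 units in KO large intestine, against 14970 and 16381 in WT large intestine. After scaling, both KO arrays were above both WT arrays at 3 of 4 probes, and at Gsdmc3 probe B the groups overlapped. Both KO arrays lay above both WT arrays at 25.4% of all kept probes, so the count rests on a pattern common in these data.

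**Figure D1:**
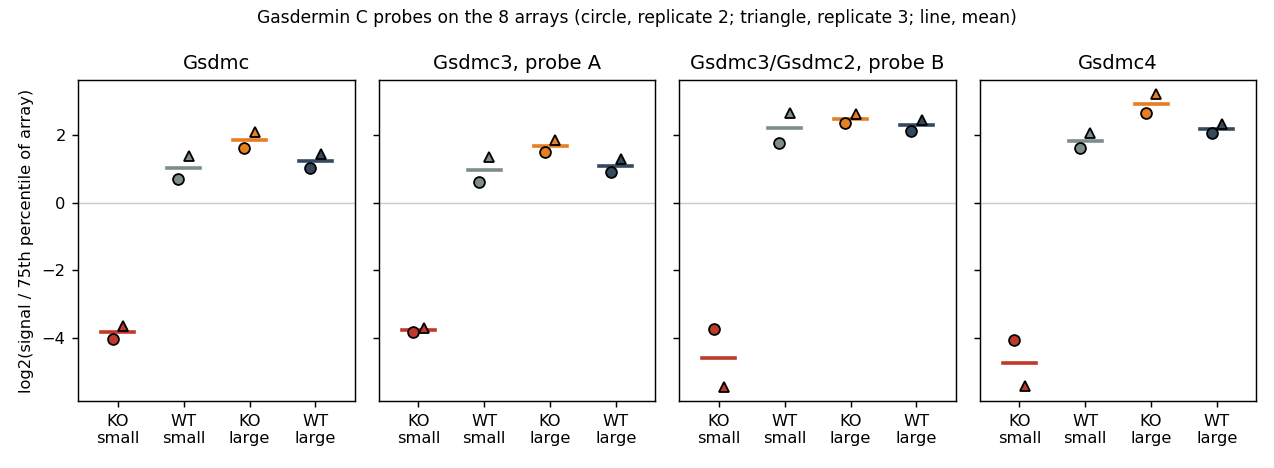
Level of each gasdermin C probe on the 8 arrays, as log2 of the signal relative to the array's 75th percentile (vertical axis), for KO small, WT small, KO large and WT large intestine. Circles are replicate 2, triangles replicate 3 and lines group means. The KO small intestine arrays sit between -5.45 and -3.64, and the other 3 groups between 0.61 and 3.21.

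These large intestine arrays were not those by which the genes were picked, and the KO minus WT difference there was tested with limma over all 20002 genes. The standard errors pool the spread of all 4 groups, so the small intestine arrays enter them too. At Gsdmc3 probe B the SD (n = 2 each) was 1.20 in KO and 0.63 in WT small intestine. It was 0.18 in KO and 0.24 in WT large intestine. At Gsdmc4 the SD was 0.97 in KO small intestine and 0.17 to 0.39 in the other groups. The SDs at Gsdmc were 0.27 to 0.47. Gsdmc differed by 0.62 ± 0.32 (standard error), a 1.54-fold higher signal in KO with an adjusted p of 0.447 and a 95% interval of -0.13 to 1.38. Gsdmc3, by probe B, differed by 0.20 ± 0.56 with an adjusted p of 0.896 and an interval of -1.14 to 1.53. Gsdmc4 differed by 0.74 ± 0.46, 1.67-fold, with an adjusted p of 0.522 and an interval of -0.36 to 1.83. In a fit with each probe as a row of its own, Gsdmc3 probe A differed by 0.58 ± 0.30 with an adjusted p of 0.452. Of the 3 genes 0 passed, and 0 had an unadjusted p under 0.05. Over all genes 0.310% passed in this comparison, 62 in all, and 13.2% had an unadjusted p under 0.05. The upper bounds leave room for a signal up to 2.59-fold (Gsdmc), 2.89-fold (Gsdmc3) or 3.55-fold (Gsdmc4) higher in KO large intestine, and the lower bounds for one up to 1.10-fold, 2.21-fold or 1.28-fold lower.

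The order of the group means was the same at all 4 probes: KO small intestine was lowest, then WT small intestine, WT large intestine and KO large intestine. WT large intestine exceeded WT small intestine by 0.19 at Gsdmc, 0.12 at Gsdmc3 probe A, 0.07 at Gsdmc3 probe B and 0.35 at Gsdmc4 on the log2 scale. The WT arrays of the 2 segments overlapped at 3 of 4 probes and were apart only at Gsdmc4, so these neighbours in the order were mostly not separated beyond their spread. Within the KO, large intestine exceeded small intestine by 5.69 at Gsdmc, 5.45 at Gsdmc3 probe A, 7.08 at Gsdmc3 probe B and 7.67 at Gsdmc4. The KO minus WT difference was thus more positive in the large than in the small intestine by 5.49, 5.33, 7.01 and 7.32 in the same order. These segment values share the small intestine arrays and are not tested here.

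The 4 probes fell into 2 pairs by the way they behaved in the KO small intestine. Between replicates 2 and 3 of that group, Gsdmc was 0.39 higher and Gsdmc3 probe A 0.13 higher in replicate 3 on the log2 scale. Gsdmc3 probe B was 1.70 lower and Gsdmc4 1.37 lower in replicate 3. In each of the other 3 groups all 4 probes were higher in replicate 3, by 0.25 to 0.88. Over the 8 arrays Pearson's r was 0.999 for Gsdmc with Gsdmc3 probe A, whose centred profiles were never more than 0.27 apart. Gsdmc3 probe B and Gsdmc4 had an r of 0.994 and were at most 0.64 apart. Any probe of one pair and any of the other had an r of 0.978 to 0.991 and came up to 2.27 to 2.34 apart. The points of these correlations are the same 8 arrays, and all r are dominated by the gap between KO small intestine and the rest. The pair with r of 0.999 is the pair with 36 identical bases printed above, and whether the probes bind each other's transcripts was not tested. The probes of Gsdmc3, which carry the same gene name, were in different pairs.

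The RefSeq promoter table of build GRCm38.p6 held 1 of the 4 genes. The 250 bases before the start of Gsdmc3 lie on the minus strand at chr15:63878559-63878808 of that build and are printed because the probes of the cluster moved together.
Gsdmc3 promoter: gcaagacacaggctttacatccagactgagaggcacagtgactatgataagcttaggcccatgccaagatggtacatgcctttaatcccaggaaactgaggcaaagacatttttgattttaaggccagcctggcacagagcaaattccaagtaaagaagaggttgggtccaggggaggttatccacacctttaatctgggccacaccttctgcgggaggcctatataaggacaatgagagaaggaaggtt

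These bases and the 50 after the start were searched on both strands. The STAT motif TTCNNNGAA and the STAT6-type motif, which has the same ends with a wider spacing, had 0 matches. Of 32851 promoters of the same length, 8.3% hold TTCNNNGAA and 6.95% hold the STAT6-type motif. The GATA motif AGATAA, held by 11.2% of promoters, and the CDX motif TTTATNG, held by 10.9%, had 0 matches. The same was true of TATAAA (13.6% of promoters), the HNF4-type CAAAGTCCA (0.475%) and the TCF-type CTTTGAT (3.73%). No match says only that these letters are not in this window, since only the spellings given were searched. The printed bases do hold tgataag and tatataag, which are close to AGATAA and TATAAA but do not match them.

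Among the genes around the cluster, the one that moved like it was its own pseudogene. Within 1000 kb of the outermost gasdermin C probes there were 19 other probes, of which 11 carried a gene name and 8 passed the filter on dim signal and were tested. The pseudogene Gsdmcl-ps (chr15:63756950-63757008, mm9) had signals of 15.7 and 15.7 units in KO small intestine, against 275.7 and 283.9 in WT small intestine. It had 1828 and 1437 units in KO large intestine, against 771 and 500.1 in WT large intestine. In KO small intestine it was not well above background on either array, and in the large intestine both KO arrays were brighter than both WT arrays. The signal in KO small intestine was at least 11.2-fold lower, with an adjusted p of 0.00338 by limma, where 10.0% of all 20002 genes passed in this comparison and 3.55% passed as lower. Its large intestine difference was 1.43 ± 0.25 with an adjusted p of 0.104.

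The pseudogene was 1 of 8 tested neighbours to pass in the small intestine, where 10.0% of all genes passed. In the large intestine 0 of 8 passed (0.310% of all genes), and 2 of 8 had an unadjusted p under 0.05 (13.2% of all genes). Gsdmcl1, which lies between Gsdmc and Gsdmc3 and is annotated as gasdermin C-like, had signals of 36.9 to 59 units over the 8 arrays. It differed by -0.29 ± 0.19 in the small intestine (adjusted p 0.345) and by 0.27 ± 0.19 in the large intestine (adjusted p 0.572). Next to the pseudogene, Cyrib (named Fam49b on the array), which encodes a regulator of Rac1, differed by 1.18 ± 0.31 (adjusted p 0.0555) and -0.11 ± 0.31 (adjusted p 0.891) in the small and large intestine. Asap1, which encodes an Arf GTPase-activating protein, differed by 0.91 ± 0.27 (adjusted p 0.0733) and 0.40 ± 0.27 (adjusted p 0.548). Adcy8, an adenylyl cyclase gene at the far end of the window, had 19.6 and 33.8 units in KO small intestine, against 36.9 and 163.3 in WT small intestine, with an adjusted p of 0.143. It was not well above background on either KO array, and WT replicate 3 alone was far brighter, so no fold is given. The predicted genes Gm2766, Gm4942 and Gm5473 differed by 0.42, 0.10 and -0.21 in the small intestine and by -0.45, 0.47 and -0.33 in the large intestine, without passing. The gasdermin C-like gene Gsdmcl2 (named Gm7779 on the array), 1700065I16Rik and 4930449C09Rik did not pass the filter on dim signal.

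**Figure D2:**
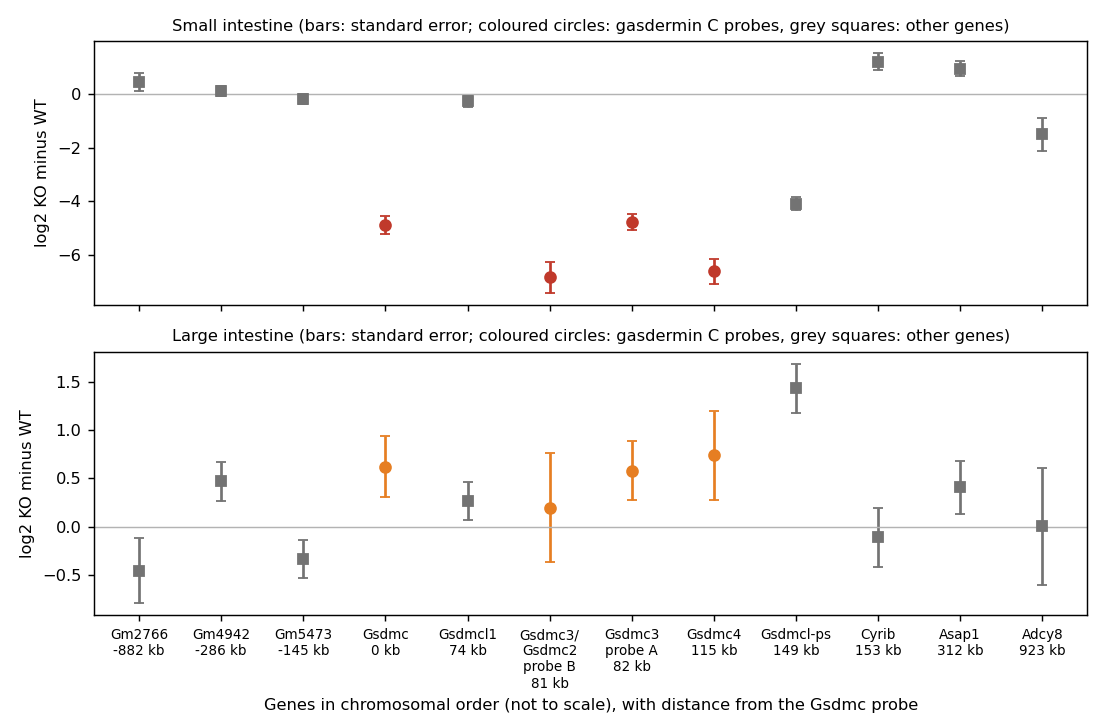
KO minus WT log2 difference (vertical axis, bars show the standard error) in the small and large intestine for the gasdermin C probes (coloured circles) and the tested neighbours (grey squares), in chromosomal order with the distance from the Gsdmc probe in kb. In the small intestine the gasdermin C probes lie between -6.82 and -4.75, and 6 of the neighbours lie between -0.29 and 1.18. Gsdmcl-ps and Adcy8 were not well above background in KO small intestine, so their points there are fitted values and not measured sizes. The vertical scales of the panels differ.

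The other gasdermin genes did not pass in either segment. In the small intestine the median difference of the 6 other gasdermin genes was 0.13, against -0.10 over all 20002 genes, and 0 of 6 passed, with 1 of 6 at an unadjusted p under 0.05 (31.5% of all genes). Gsdmd, the gasdermin cut by inflammatory caspases, had log2 levels of 4.16 and 3.46 in KO small intestine, against 4.39 and 3.93 in WT small intestine. It differed by -0.36 ± 0.30 there (limma adjusted p 0.455), and the arrays of the genotypes overlapped. Gsdme, the gasdermin cut by caspase-3, differed by 0.62 ± 0.78 (adjusted p 0.629). Pjvk, the hearing gene of the family, differed by 0.84 ± 0.26 (adjusted p 0.0782). Gsdma, Gsdma2 and Gsdma3, known from skin and the upper gut, differed by -0.09, 0.34 and -0.54. Of the 6 genes 0 passed in the large intestine, where 0.310% of all genes passed. At an unadjusted p under 0.05 there were 2 of 6 (13.2% of all genes), and the median was -0.09 against 0.0004 over all genes. Gsdmd differed by 0.88 ± 0.30 (adjusted p 0.302) and Gsdma2 by -1.36 ± 0.43 (adjusted p 0.282) there. The other 4 genes, Gsdma, Gsdma3, Gsdme and Pjvk, differed by 0.64, 0.003, -0.17 and -0.29.

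Several genes of the machinery that cuts gasdermins were lower in KO small intestine, where 3.55% of all genes were called lower. Inflammasomes are the sensor complexes that recruit and activate caspase-1. Of the 14 inflammasome sensors and adaptors, 5 fell and 0 rose in KO small intestine, with a median of -0.69. At an unadjusted p under 0.05 there were 6 of 14 (31.5% of all genes). Pycard, which encodes the adaptor ASC, had log2 levels of 2.86 and 2.88 in KO small intestine, against 5.35 and 5.21 in WT small intestine. It fell by 2.41 ± 0.25 (limma adjusted p 0.012), and the genotypes were well apart. Naip6, a member of the family of sensors for bacterial flagellin and secretion systems, fell by 2.19 ± 0.30 (adjusted p 0.0224). Nlrp1b, the sensor of anthrax lethal factor, fell by 1.09 ± 0.18 (adjusted p 0.0293). Nlrp6, an intestinal epithelial sensor, fell by 2.77 ± 0.51 (adjusted p 0.0338), and Naip2 by 1.98 ± 0.37 (adjusted p 0.0352).

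Of the 10 caspases, 1 fell and 0 rose in KO small intestine, with a median of -0.43. At an unadjusted p under 0.05 there were 2 of 10 (31.5% of all genes). Casp1 had log2 levels of 3.67 and 2.09 in KO small intestine, against 4.87 and 4.77 in WT small intestine. It fell by 1.94 ± 0.47 (limma adjusted p 0.0491), close to the threshold. Casp12 differed the other way, by 1.27 ± 0.32 (adjusted p 0.0538), and did not pass. Casp8, named here after its values were seen because human caspase-8 can cut gasdermin C, differed by -0.46 ± 0.30 (adjusted p 0.331). Of the 12 effector, cargo and protease genes, 2 fell and 0 rose, with a median of -0.29. Both encode granzymes, the proteases of killer lymphocytes. Gzma fell by 2.12 ± 0.35 (adjusted p 0.0293) and Gzmb by 1.10 ± 0.23 (adjusted p 0.0391). At an unadjusted p under 0.05 there were 4 of 12 (31.5% of all genes). The cargo genes Il1b and Il18 differed by 2.40 ± 0.63 (adjusted p 0.0562) and -0.95 ± 0.30 (adjusted p 0.0825), without passing.

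The inflammasome, caspase and effector, cargo and protease lists held 2 calls in the large intestine. Of the inflammasome genes 1 fell and 0 rose, with a median of -0.02, where 0.145% of all genes were called lower. Nlrp1b had log2 levels of -5.22 and -5.29 in KO large intestine, against -2.11 and -2.03 in WT large intestine. It fell by 3.18 ± 0.18 (limma adjusted p 0.00382), and its probe lies 1188 kb from that of Cldn7 on chromosome 11 in mm9. Of the effector, cargo and protease genes 1 rose and 0 fell, with a median of 0.44, where 0.165% of all genes were called higher. Gzmb rose by 1.85 ± 0.23 in KO large intestine (adjusted p 0.0409). The difference between its effects in the large and small intestine was 2.95 with an adjusted p of 0.0444, a test that 0.140% of all genes passed. No fit with an array left out is given for that difference. Of the caspases 0 passed in the large intestine, with 0 of 10 at an unadjusted p under 0.05 (13.2% of all genes) and a median of 0.18.

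The small intestine calls of these lists rest on few arrays. With each of the 8 arrays left out in turn, the number of inflammasome genes that fell ranged from 0 to 7, and it was 0 without KO small intestine replicate 3 and without WT small intestine replicate 3. Pycard passed in 6 of these 8 fits, Naip6 in 4, Naip2 in 2, Nlrp1b, Nlrp6, Gzma and Casp1 in 1 and Gzmb in 0. In the large intestine, Nlrp1b passed in 7 of 8 such fits, with an adjusted p of 0.0722 without WT large intestine replicate 3, and Gzmb in 0 of 8. The pseudogene Gsdmcl-ps passed in the small intestine in 8 of 8 such fits, with adjusted p up to 0.0272.

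**Figure D3:**
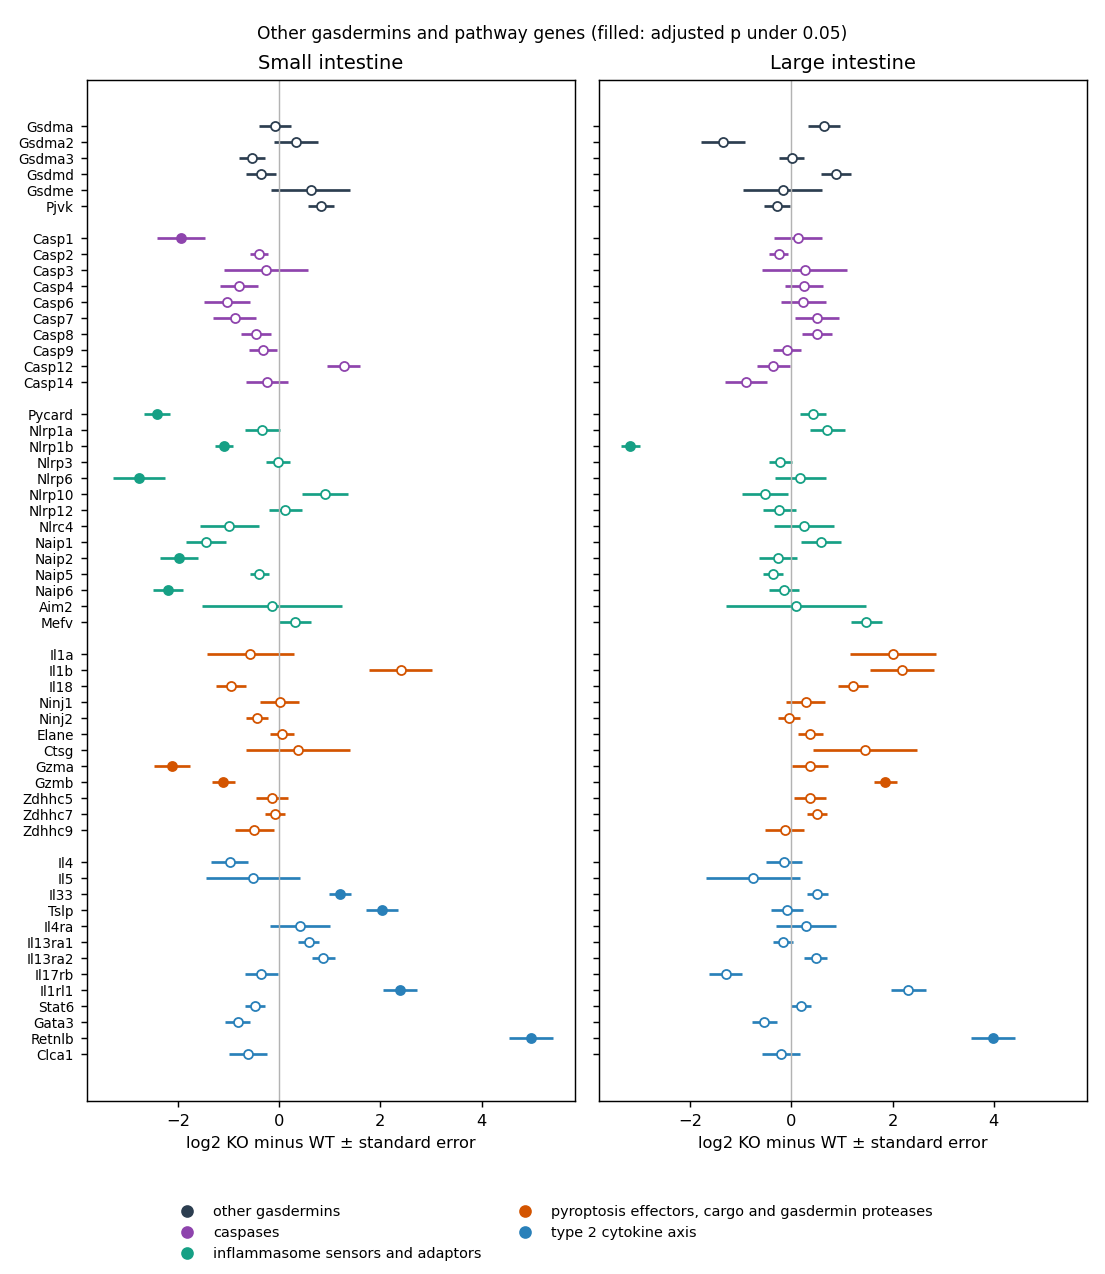
KO minus WT log2 difference with its standard error (horizontal axis) in the small and large intestine for the other gasdermins, caspases, inflammasome genes, pyroptosis effectors and type 2 genes that were tested. Filled points passed at an adjusted p under 0.05. Pycard, Naip6, Nlrp6, Naip2 and Casp1 stand to the left of 0 in the small intestine, at -2.77 to -1.94, and lie between -0.27 and 0.43 in the large intestine. Nlrp1b passed in both segments, at -1.09 in the small and -3.18 in the large intestine.

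Of the genes of the type 2 cytokine axis, which is known to induce gasdermin C genes, 4 passed in the small intestine and 1 passed in the large intestine. Of the 16 genes 13 were tested, and the other 3, Il9, Il13 and Il25, did not pass the filter on dim signal. In KO small intestine 4 of the 13 rose and 0 fell, with a median of 0.42, where 6.47% of all genes were called higher. At an unadjusted p under 0.05 there were 9 of 13, in both directions, against 31.5% of all genes. Retnlb, which encodes a goblet cell protein induced by type 2 cytokines, was not well above background on either WT small intestine array and was at least 8.39-fold higher in KO, with a limma adjusted p of 0.00789. Il1rl1, the receptor gene for interleukin-33, had log2 levels of 1.34 and 1.88 in KO small intestine, against -0.84 and -0.72 in WT small intestine. It rose by 2.39 ± 0.34 (adjusted p 0.0231), with no overlap between the genotypes. The epithelial alarmin genes Tslp and Il33 rose by 2.04 ± 0.32 (adjusted p 0.0265) and 1.20 ± 0.21 (adjusted p 0.0318). Stat6, the gene of the transcription factor through which type 2 cytokines induce gasdermin C genes, differed by -0.48 ± 0.20 (adjusted p 0.153) in the small intestine. Il4, a type 2 cytokine gene, differed by -0.98 ± 0.36 (adjusted p 0.117), and Gata3, a transcription factor gene of type 2 lymphocytes, by -0.82 ± 0.24 (adjusted p 0.0742). The receptor genes Il13ra2 and Il13ra1 differed the other way, by 0.87 ± 0.23 (adjusted p 0.0574) and 0.58 ± 0.20 (adjusted p 0.107). Stat6, Il4, Gata3 and these receptor genes did not pass and are named after their values were seen. In KO large intestine 1 of the 13 rose and 0 fell, with a median of -0.09. That gene was Retnlb, which rose by 3.98 ± 0.44 (adjusted p 0.0338), while no gasdermin C gene passed there. With each array left out in turn, Retnlb passed in the small intestine in 7 of 8 fits, Il1rl1 in 6, Tslp in 4 and Il33 in 1. All 4 missed the threshold without KO small intestine replicate 3. In the large intestine Retnlb passed in 4 of 8, missing it without either KO small or either WT large intestine array, with adjusted p up to 0.274.

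Cldn7 itself, by its only tested probe, fell by 4.34 ± 0.39 in KO small intestine (limma adjusted p 0.00794) and by 3.52 ± 0.39 in KO large intestine (adjusted p 0.0338), and it was well above background on all 8 arrays. With each array left out in turn it passed in 8 of 8 fits in the small intestine and in 2 of 8 in the large intestine, where the adjusted p reached 0.253. Markers of other tissue layers moved with genotype in the small intestine, and their part in the gasdermin C values was not tested. Over all genes 3.55% were called lower and 6.47% higher in KO small intestine, and 31.5% had an unadjusted p under 0.05. Of the 15 pan-epithelial genes 4 were lower there, and 5 had an unadjusted p under 0.05, with summed signals, relative to the 75th percentile, of 592 and 473 in KO against 567 and 647 in WT. The 4 were the epithelial transcription factor genes Klf5, Elf3, Cdx1 and Cdx2. Of the 12 enterocyte genes 0 passed, with 2 of 12 at an unadjusted p under 0.05, and summed signals were 833 and 448 in KO small intestine against 816 and 688 in WT small intestine. Of the 10 enteric neuron genes 7 were higher in KO small intestine, and 9 had an unadjusted p under 0.05, with summed signals of 49.8 and 82.8 in KO against 26.8 and 14.8 in WT. The smooth muscle list had 1 of 10 higher and 10 of 10 at an unadjusted p under 0.05, with differences of 0.74 to 2.03 and a median of 1.35. Its summed signals were 670 and 739 in KO against 439 and 252 in WT.

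Markers of blood cells also differed, where 3.55% of all genes were called lower and 6.47% higher. Of the 9 tested T and NK cell genes 5 were lower in KO small intestine, and 6 had an unadjusted p under 0.05, with summed signals of 3.14 and 3.13 in KO against 5.65 and 6.26 in WT. Of the 10 macrophage genes 6 were higher, and 7 had an unadjusted p under 0.05, with summed signals of 116 and 77.1 in KO against 93.3 and 81 in WT. The genes that mark the large intestine summed to 17.5 and 2.39 in KO small intestine and 42.2 and 8.99 in WT small intestine, against 285 and 346 in KO large intestine and 189 and 197 in WT large intestine. Fxyd4 and Hoxa13, named after their values were seen, were not well above background on any small intestine array. Of the 8 genes listed as small intestine markers, 6 were called lower and 1 higher in WT large than in WT small intestine. For KO against WT 0 of the 8 passed in the small intestine, with 1 at an unadjusted p under 0.05 (31.5% of all genes). Apoa4 was the 1 that was lower in KO large intestine. Of the 7 liver and 8 pancreas genes tested 0 passed in either segment. At an unadjusted p under 0.05 there was 1 of each list in the small intestine, and there were 2 liver and 0 pancreas genes in the large intestine (13.2% of all genes). The liver genes summed to 109 and 78.6 in KO small intestine, against 140 and 109 in WT small intestine. They summed to 277 and 65.3 in KO large intestine, against 46.4 and 67.6 in WT large intestine, so KO large intestine replicate 2 stood apart. Without that array the gasdermin C genes still did not pass in the large intestine, with differences of 0.85 for Gsdmc (adjusted p 0.362), 0.33 for Gsdmc3 (0.849) and 1.02 for Gsdmc4 (0.438). The pancreas genes summed to 1.13 and 0.68 in KO small intestine, against 14.9 and 19.3 in WT small intestine, and to 0.69 and 12.9 in KO large intestine, against 14.2 and 0.88 in WT large intestine. The part of these markers in the gasdermin C values was not tested.

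With each array left out in turn, the number of genes that passed in the directions above fell to 0 at its lowest for each of the lists of tissue layers and blood cells. At its highest it was 5 for the pan-epithelial, 8 for the enteric neuron, 8 for the smooth muscle, 5 for the T and NK cell and 6 for the macrophage list.

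Several genes elsewhere in the genome had a profile like that of the cluster. Likeness was Pearson's r over the 8 arrays with the mean of the centred gasdermin C profiles, among 4659 genes that spanned at least 2 log2 units. Names of clones, predicted loci and pseudogenes were passed over, so the neighbouring pseudogene Gsdmcl-ps was not considered. Of the 4659 genes, 31 had an r of at least 0.95. The 8 most alike were Aspg (0.993), Slc44a3 (0.993), Ces2c (0.989), Cryba2 (0.986), Aldh1a7 (0.984), Akr1c14 (0.983), Trim72 (0.982) and Tmem171 (0.982). They lie on chromosomes 12, 3, 8, 1, 19, 13, 7 and 13 in the same order, none on chromosome 15. Aspg encodes an asparaginase, Slc44a3 a choline transporter-like protein, Ces2c a carboxylesterase, Aldh1a7 an aldehyde dehydrogenase and Akr1c14 an aldo-keto reductase. Their KO minus WT differences were -3.52 to -2.05 in the small intestine, smaller in size than those of the gasdermin C probes, and -0.15 to 0.59 in the large intestine. Without the 2 arrays farthest from the median of the cluster's profile, r fell to between 0.35 (Aldh1a7) and 0.894 (Cryba2), so the likeness rests largely on KO small intestine.

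**Figure D4:**
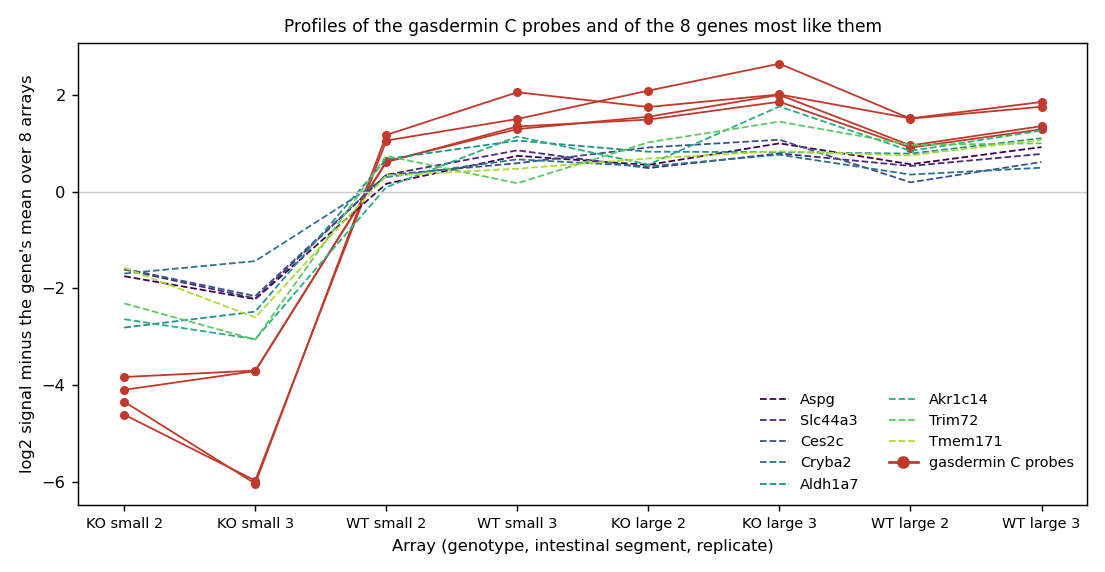
Profiles of the gasdermin C probes (red lines) and of the 8 genes most like them (dashed lines) over the 8 arrays, as log2 signal minus each gene's mean (vertical axis). All lines are lowest on the KO small intestine arrays, and the gasdermin C lines reach lower there than all 8 other genes.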

How the data were processed

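Total RNA was measured with 8 Agilent 1-colour arrays on 1 slide, 2 per group, grouped by the sample titles. The deposited array files give, per the file headers, each spot's intensity after the background correction of Agilent's Feature Extraction software (version 10.7.3.1), with probes placed on mm9. The authors also deposited a normalized intensity table, with column medians of 158.06 to 160.06, whose background step is not given in the sources used here and which served as an alternative. The submitters' processing notes list R version 3.3.0, with no role given.

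The processed signal was put on the log2 scale and reduced by each array's 75th percentile over 59305 non-control spots (2642.5 to 3571.8 units). After 302 probes with an outlier flag were dropped and spots of a probe averaged, 38718 probes were kept, those that stood well above background on both arrays of any group. Probes were named through RefSeq (GRCm38.p6, names only) by accession (26056), current symbol (3200), older symbol (930) or the array's own name (2419), and 23076 stayed unnamed. The brightest probe stood for a gene, which gave 20002 genes. limma 3.58.1 in R 4.3.3 was fitted with 4 group means on all 8 arrays (4 residual degrees of freedom), with Benjamini-Hochberg adjustment over all genes and a threshold of 0.05.

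A bound given as at least N-fold sets the bright group's mean against, on each dim array, the higher of the lowest signal among probes well above background and the probe's own. Alternatives were other background correction, quantile normalization, the deposited table, other filters, other probe rules, another prior, the replicate number as a block and each array left out. Precision is limited by the number of arrays.

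The members, gene lists and tests were chosen with earlier results of these data known. Named genes were the gasdermins, Cldn7, named genes within 1000 kb of the cluster, up to 4 members of each other list with the smallest p among those that passed, and the 8 genes most alike. Beyond this rule Naip2, Casp8, Casp12, Il1b, Il18, Stat6, Il4, Gata3, Il13ra1, Il13ra2, Fxyd4, Hoxa13, Il9, Il13 and Il25 were named after their values were seen. The result of 1 listed marker gene is not reported here.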

Additional observations from a re-analysis of the deposited data

Results flagged for a closer look

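At 3 probes both KO arrays lay below both WT arrays in the small intestine and above both WT arrays in the large intestine. Over all kept probes, 34.6% lay below in this way in the small intestine and 25.4% above in the large intestine. The share of probes with both patterns was not computed. At Gsdmc3 probe B the genotypes overlapped in the large intestine. The KO minus WT log2 difference was more positive in the large than in the small intestine by 5.49 for Gsdmc, by 5.33 for Gsdmc3 probe A and by 7.32 for Gsdmc4. The genes were picked by their small intestine values, so the difference was not tested.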

How the results depend on the processing

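The KO minus WT difference of the gasdermin C genes in the large intestine stayed positive and short of the threshold in all 18 alternative settings, 1 of which (each probe as a row of its own) was chosen after seeing the data. It ranged from 0.39 to 0.85 for Gsdmc (adjusted p 0.225 to 1), from 0.03 to 0.39 for Gsdmc3 (0.67 to 1) and from 0.46 to 1.02 for Gsdmc4 (0.304 to 1). In the small intestine the differences stayed negative, at -5.21 to -4.54 for Gsdmc, -7.66 to -5.78 for Gsdmc3 and -7.27 to -5.85 for Gsdmc4. Gsdmc3 moved to -5.78 with the mean of its probes, since probe A differed less. Gsdmc4 moved to -5.85 with normexp background correction, which adds an offset of 50 units. The processed signals of Gsdmc4 in KO small intestine were 158 and 79.4 units, and the part of the offset in this move was not tested.

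The number of genes that passed changed more. In the large intestine 62 passed, against 19 with no background filter, 32 with probes well above background on all 8 arrays and 15 with the replicate block. With an array left out it ranged from 0 (without WT large intestine replicate 3) to 151 (without KO large intestine replicate 3), and was 31 without WT large intestine replicate 2. In the small intestine 2006 passed, against 488 with no background filter and 1145 with the replicate block. With an array left out it ranged from 61 (without WT small intestine replicate 3) to 3880 (without KO small intestine replicate 2). It was 65 without KO small intestine replicate 3, 93 or 94 without a WT large and 660 or 671 without a KO large intestine array. Such fits have fewer residual degrees of freedom, and a lone array is assumed to vary like the other groups. With the replicate block, Gsdmc differed by 0.62 in the large intestine with an adjusted p of 0.225, and it did not make any member pass. Deviations from the group means of same-numbered KO and WT arrays correlated at 0.107 in the small and 0.00865 in the large intestine. Between the segments the correlations were 0.215 (WT with WT), 0.0556 (KO with KO), 0.177 (KO small with WT large) and 0.263 (KO large with WT small). The labels do not tie the numbers to litters or pups, and with 2 numbers no pairing was assumed. With 2 arrays per group, all on 1 slide, the number of arrays limits what can be told apart.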
